A study of Mus musculus with 12 samples.

Results

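The 36 genes described here encode the proton pump of the lysosome and the protein platform on its surface where the growth kinase complex mTORC1 is switched on. They were chosen by name, as listed subunits of the vacuolar-type ATPase (V-ATPase), Ragulator, the Rag GTPases, the arginine sensor Slc38a9, the folliculin complex and mTORC1 with its activator Rheb. All 36 symbols were found among the 41079 genes of the deposited table, and all 36 passed the filter on low counts that left 20771 genes for testing. RNA had been sequenced from 12 whole mouse embryos collected 10.0 to 11.0 days after fertilization. Mating of parents that each carried 1 disrupted copy of Mfsd12 gave 4 Mfsd12 knockout, 4 heterozygous and 4 wild-type embryos. The labels used here name no strain, do not describe the disrupted allele, and list no drug or other agent for any group. The comparison between genotypes asks what differs in the embryo when Mfsd12 is missing. Mfsd12 is a membrane protein needed for the import of cysteine into lysosomes and pigment granules.

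The V-ATPase uses the energy of ATP to acidify the lysosome. Its V1 sector, in the cytosol, splits ATP and turns a rotor, and its V0 sector, in the membrane, carries the protons across. Ragulator holds the Rag GTPases on the lysosomal membrane and contacts the pump, and the Rags bring mTORC1 to Rheb when amino acids are plentiful. Slc38a9 reports arginine inside the lysosome, and folliculin with its partners Fnip1 and Fnip2 acts on the nucleotide state of RagC and RagD. Mouse embryos need mTORC1 to grow beyond the earliest stages.

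The libraries held 53133084 to 67977990 counted reads. Each embryo was counted as 1 sample. The counts of every pair of libraries differed beyond sampling noise, so no pair was repeat reads of 1 library. That check cannot show that the embryos are independent. Levels below are CPM, the read count of a gene scaled to its library size after trimmed mean of M values (TMM) scaling, and CPM per kilobase of exon (CPM per kb) where genes are compared with each other. Mfsd12 stood at 3.22, 2.78, 3.57 and 2.31 CPM in knockout 1 to 4 and at 12.7, 16.2, 9.48 and 9.38 CPM in wild-type 1 to 4. In the embryos labelled heterozygous it was 8.84, 2.58, 6.03 and 5.91 CPM. The second of these values lies among the knockouts, so that embryo is called the library labelled heterozygous 2 throughout, and results that rest on it are given without it as well. The edgeR quasi-likelihood estimate for knockout against wild-type was a log2 fold change of -2.01 ± 0.33 SE (unadjusted p = 3.71e-05, adjusted p = 0.385 over all genes tested). Part of the Mfsd12 exons overlap Tektip1 on the other strand (17.5% of its length), and reads had been counted without regard to strand. The library labelled heterozygous 2 also stood apart in glycolysis and hypoxia-response genes, with a summed level of 13909 CPM against 2179 to 5576 CPM in the other 11 embryos. Knockout 3 held 1539 CPM of yolk sac endoderm markers against 49.1 to 197 CPM in the others. All 12 of these markers had a higher estimate in knockout than in wild-type embryos. The sums of knockout 1, 2 and 4 (55.4, 60.0 and 107 CPM) nonetheless overlapped those of wild-type embryos (50.7 to 104 CPM). Xist was at 397 to 1745 CPM in knockout 1, wild-type 2 and all 4 heterozygous embryos and at most 9.41 CPM in the rest, so sex was not balanced between genotypes. Erythroid, neuronal, macrophage and melanoblast marker lists were all detected, and no marker was at 0 in all 12 embryos. Each title carries a first number (4, 4.1b, 14, 15 or 18) whose meaning the labels do not give.

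The pump was expressed in every embryo with its general subunits far above the tissue-restricted ones. Per kb, the V1 stalk subunits Atp6v1f, Atp6v1g1 and Atp6v1e1 led the order with means over 12 embryos of 90.0 ± 30.4, 86.3 ± 18.97 and 74.98 ± 13.3 CPM per kb (SD, n = 12). The Ragulator anchor Lamtor1 followed at 68.9 ± 14.6 CPM per kb. Neighbours in this order were mostly within their spread: Atp6v1f was above Atp6v1g1 in 6 of 12 embryos, while Atp6v1g1 was above Atp6v1e1 in 11 of 12. Among the membrane-sector genes, the rotor ring subunit Atp6v0c had 46.2 ± 6.74 CPM per kb and the second ring subunit Atp6v0b 32.7 ± 10.8 CPM per kb. Within V1, the catalytic A subunit Atp6v1a (26.96 ± 6.69 CPM per kb) lay below the B subunit Atp6v1b2 (46.5 ± 7.66 CPM per kb), although both enter the hexamer in equal numbers as proteins. The platform spanned a wide range. Rraga (47.8 ± 4.67 CPM per kb) and Rheb (45.7 ± 6.70) were near the top of the list, Mtor (9.26 ± 2.22) and its partner Rptor (9.09 ± 1.61) lay near each other in the lower part, and the arginine sensor Slc38a9 was the lowest of the 36 at 0.990 ± 0.202 CPM per kb. Fnip2, just above it at 1.55 ± 0.350 CPM per kb, exceeded Slc38a9 in 12 of 12 embryos. Exonic length is the union of annotated exons, so a gene with long unused exons reads low on this scale.

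**Figure D1:**
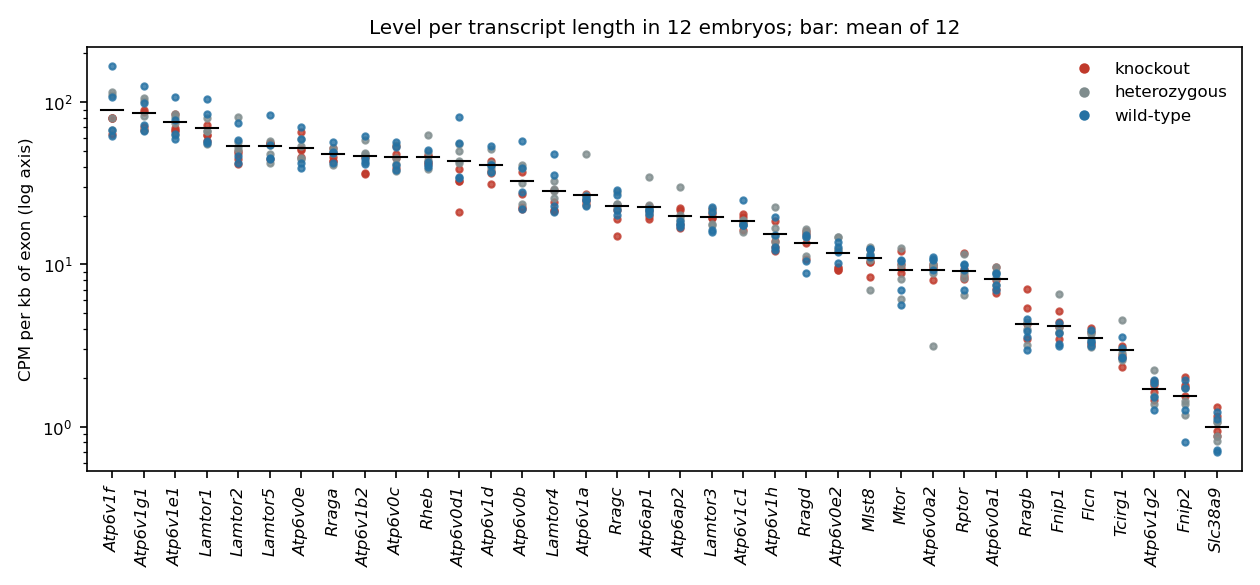
Level of the 36 genes in CPM per kb of exon (log axis) in the order of their means, with a point per embryo coloured by genotype and a bar at the mean of 12 embryos. Atp6v1f leads at 90.0 and Slc38a9 closes the order at 0.990 CPM per kb, and the lone low point of Atp6v0a2 is the library labelled heterozygous 2.

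As a group the members varied slightly less between embryos than other genes of their level. The median coefficient of variation over the 12 embryos was 18.7% for the 36 genes, 27.6% for all genes tested and 20.9% for the 11448 genes tested whose mean CPM lay in the members' range. Flcn (9.53%) and Rraga (9.77%) were the steadiest members. Atp6v0d1 (35.8%), Atp6v1f (33.8%) and Atp6v0b (33.1%) varied most.

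Promoters of the members were examined for the E-box CACGTG, because the lysosomal regulators TFEB and TFE3 bind an E-box within a longer palindrome, the CLEAR element, in many V-ATPase genes. RefSeq promoters (build GRCm38.p6, 250 bases before to 50 bases after each start) were at hand for 30 of the 36 genes. CACGTG, read on both strands, stood in the promoters of 10 of those 30 genes (33.3%) and of 8.09% of all genes in the table. The longer form TCACGTGA, which contains the first motif, was found in 3 of 30 (10%) against 1.12% of all genes. The ATF4 element TGATGNAAT was found in 0 of 30 against 1.08%. At so low a share 0 of 30 is the likely outcome, so nothing is drawn from it. Member promoters were also richer in G and C (median 59% against 52.7%), and the part of base composition in these shares was not tested. The 6 stretches below were picked after the search, to show the 3 TCACGTGA matches and the CACGTG matches of Atp6v0b and of the Ragulator genes Lamtor4 and Lamtor1. The motif is in capitals, and each stretch reads 5′ to 3′ on the strand of its gene.
Atp6v0d1, chr8:105566050-105566079, minus strand: ccctactgcggTCACGTGAgacgcggtgcg
Atp6v0e, chr17:26676387-26676416, plus strand: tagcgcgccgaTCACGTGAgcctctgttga
Atp6v1a, chr16:44139364-44139411, minus strand: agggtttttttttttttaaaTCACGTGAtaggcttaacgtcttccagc
Atp6v0b, chr4:117887330-117887385, minus strand: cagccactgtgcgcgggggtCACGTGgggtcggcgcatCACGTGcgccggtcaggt
Lamtor4, chr5:138255342-138255403, plus strand: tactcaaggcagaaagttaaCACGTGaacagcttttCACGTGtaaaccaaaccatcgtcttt
Lamtor1, chr7:101905749-101905794, plus strand: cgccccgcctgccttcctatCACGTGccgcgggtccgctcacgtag
The match in Atp6v0d1 lies across the transcription start and that in Atp6v0e just past it, and the other 4 stretches lie upstream. Rragb, Rragc, Rheb and Fnip1 also held CACGTG. Atp6v0b and Lamtor4 each held the hexamer more than once within a short stretch, and Rragb held it 127, 36 and 3 bases before its start. A match describes the letters of the window and was not tied to binding in these embryos. The median log2 fold change of knockout against wild-type was -0.12 for the 10 genes with the hexamer and -0.04 for the 20 without it.

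Between knockout and wild-type embryos none of the 36 genes passed the threshold of 0.05 on the adjusted p (edgeR, Benjamini-Hochberg over all genes tested), and neither did any other gene tested (0%). At an unadjusted p under 0.05 edgeR found 2 members, both in the V0 sector and both lower in knockouts, the assembly subunit Atp6v0d1 and the small subunit Atp6v0e2. That is 5.56% of the list against 8.33% of all genes tested, or 4.08% of all genes in the lower direction. Groups that did not overlap were found for 1 member, Atp6v0e2, or 2.78% of the list against 3.43% of all genes (1.82% in the lower direction). Estimates were lower in knockouts for 22 members and higher for 14, with a median log2 fold change of -0.06 against 0.01 over all genes, of which 48.7% had a lower estimate. The median standard error of a member was 0.20, and the 95% interval lay within a 2-fold change either way for 33 of 36 genes. The 3 others were Atp6v0b, Atp6v0d1 and Atp6v1f.

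**Figure D2:**
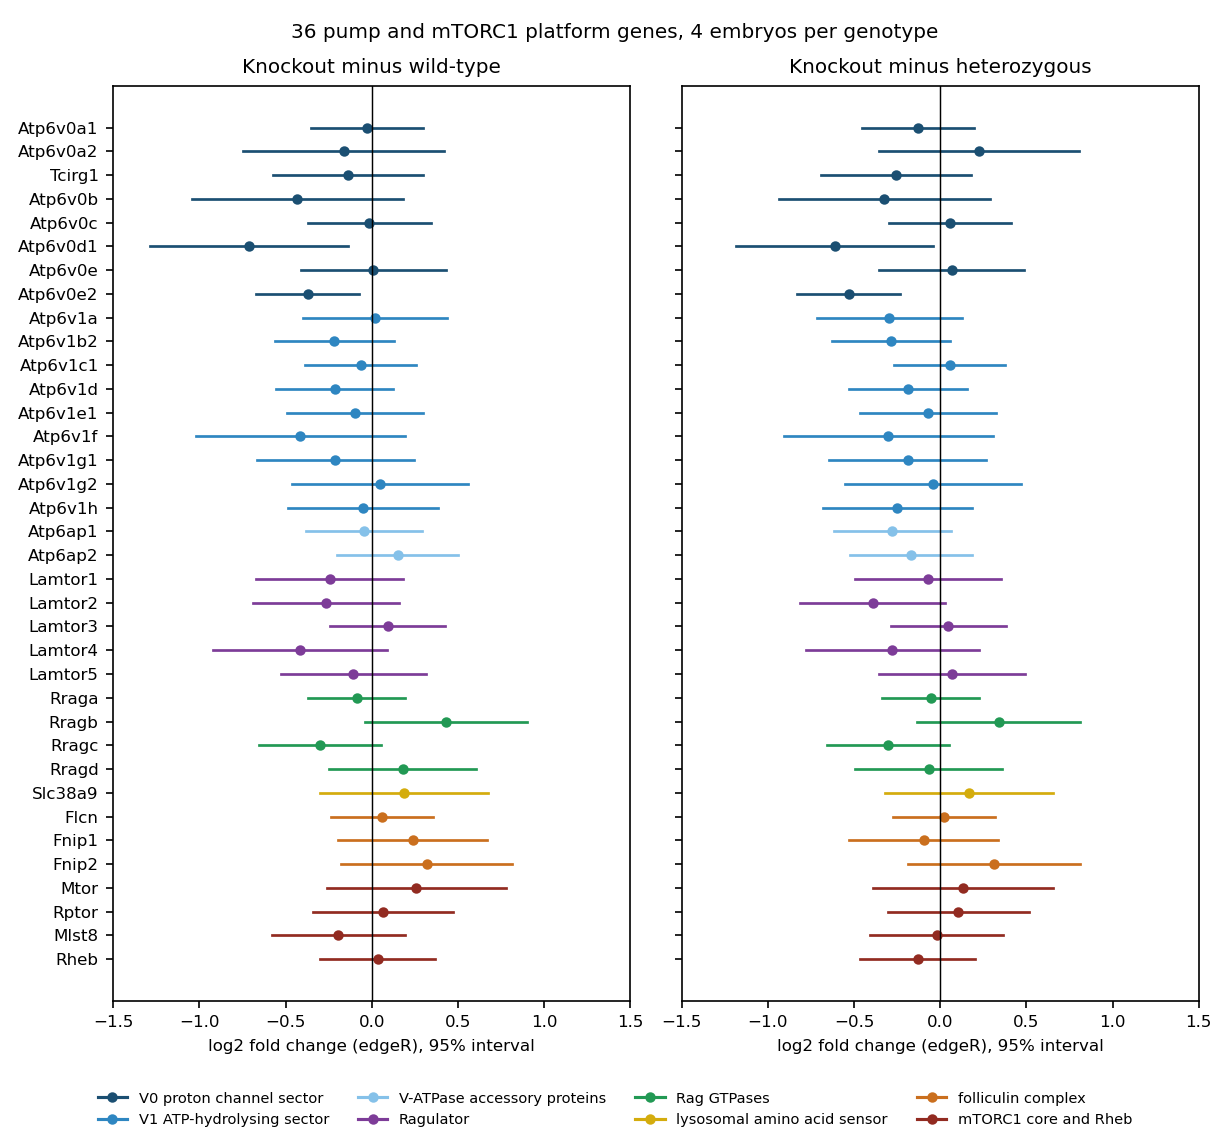
edgeR log2 fold changes (points) with 95% intervals (bars) of the 36 genes, coloured by sub-complex, for knockout minus wild-type (left) and knockout minus heterozygous (right), 4 embryos per genotype. The interval holds 0 for 34 of 36 genes on each side, and the exceptions are Atp6v0d1 and Atp6v0e2 both times.

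Most pump genes had lower estimates in knockouts, and the platform genes were mixed. Of the 19 V-ATPase genes, 15 had a lower estimate and 4 a higher one, with a median log2 fold change of -0.10. Of the 17 genes from Ragulator to Rheb, 7 were lower and 10 higher, with a median of 0.06. The direction over all 36 genes depended on the embryos included. Without wild-type 1 they split 18 to 18 with a median of 0.01, and without knockout 1 they split 18 to 18 with a median of -0.01. Without wild-type 4 the median was -0.12. Adding a stage index to the model gave 18 to 18 (median -0.002). That index is the mean standardized level of 10 genes that decline as the embryo matures, with the sign turned. It ran from -1.56 to 0.39 in knockouts and from -0.60 to 1.09 in wild-type embryos, so knockouts lay on its lower side with some overlap. Of its 10 genes, 9 had a higher estimate in knockouts than in wild-type embryos. All embryos carry the same age range, so stage and genotype cannot be told apart in this index. Every estimate with the index modelled shares this limit.

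In the V0 sector, Atp6v0e2 was the member that best separated the genotypes. This gene (chromosome 6, 48514503 to 48518735, plus strand, GRCm39) encodes the second form of the small e subunit and is enriched in brain. It was at 17.4, 17.02, 16.8 and 17.7 CPM in the 4 knockouts, at 25.0, 23.4, 21.9 and 18.8 CPM in the wild-type embryos and at 27.2, 22.6, 27.1 and 22.7 CPM in the heterozygous ones. All 4 knockouts lay below all 8 other embryos, and they were close together while the other genotypes spread over several CPM. The log2 fold change against wild-type was -0.37 ± 0.14 SE (edgeR, unadjusted p = 0.0184, adjusted p = 0.552). Neuronal markers were also lower in knockouts as a group. Among the knockouts, whose Atp6v0e2 values were close together, the marker sums did not run in the order of Atp6v0e2. Knockout 3 had the highest marker sum of the knockouts (904 CPM) and the lowest Atp6v0e2 (16.8 CPM). Knockout 4 had the lowest sum (212 CPM) and the highest Atp6v0e2 of the knockouts (17.7 CPM). Heterozygous 1 was the highest of all 12 embryos in both (1452 and 27.2 CPM). Wild-type 4 was the lowest of the wild-type embryos in both (830 and 18.8 CPM). The highest wild-type sum was in wild-type 2 (1358 CPM) and the highest wild-type Atp6v0e2 in wild-type 1 (25.0 CPM). All 12 neuronal markers had lower estimates in knockouts than in wild-type embryos, 9 of them at an unadjusted edgeR p under 0.05. Their summed level was 212 to 904 CPM in knockouts, 830 to 1358 CPM in wild-type and 737 to 1452 CPM in heterozygous embryos. The part of neurons in the Atp6v0e2 difference was not tested, and in RNA from whole embryos fewer cells of a type and less RNA per cell cannot be told apart. The difference kept its sign in all 25 alternative analyses, at log2 fold changes of -0.44 to -0.26, and had an unadjusted p under 0.05 in 21 of them.

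Atp6v0d1 encodes the d subunit, which joins the rotor ring to the central stalk. The gene (chromosome 8, 106251093 to 106292696, minus strand, GRCm39) was singled out after its values were seen. It was at 54.1, 53.7, 64.2 and 34.9 CPM in knockouts, 133 and 92.6 CPM in wild-type 1 and 2, and 55.9 and 57.0 CPM in wild-type 3 and 4. Knockout and wild-type embryos overlapped, and the wild-type values fell into a high and a low pair that follow the title numbers 18 and 4. The log2 fold change was -0.71 ± 0.27 SE (edgeR, unadjusted p = 0.0185, adjusted p = 0.552), the largest of the 36. It was -0.41 without wild-type 1 and -0.56 without knockout 4, at unadjusted p values of 0.0916 and 0.0573. Once the stage index was modelled it was -0.22 (unadjusted p = 0.363, edgeR), and with limma voom and sample weights it was -0.28 (unadjusted p = 0.176). Within title number 18 the knockout lay 0.79 below the mean of the 2 wild-type embryos on the log2 scale, and within number 4 it lay 0.07 below. Erythroid marker sums were 5144 to 18580 CPM in knockouts, 12790 to 50908 CPM in heterozygous and 17770 to 91799 CPM in wild-type embryos. Wild-type 1 was the highest of the series in both these markers and Atp6v0d1. Heterozygous 4 had the highest marker sum of its genotype (50908 CPM) and its lowest Atp6v0d1 (69.8 CPM). The part of erythroid cells was not tested.

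The rest of V0 gave no separation. Atp6v0b, a ring subunit, was at 36.1 to 60.6 CPM in knockouts and 35.8 to 94.8 CPM in wild-type embryos, for a log2 fold change of -0.43 ± 0.28 SE. Atp6v0c, the main ring subunit, differed by -0.01 ± 0.17 SE and Atp6v0e by 0.01 ± 0.20 SE. A processed copy of Atp6v0c, Atp6v0c-ps2, is listed on its own in the table, and reads that match both could be split between them.

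In the V1 sector, 7 of 9 genes had lower estimates and none had an unadjusted p under 0.05. Atp6v1f, the F subunit of the central stalk, had the smallest p (0.163, edgeR, unadjusted). It was at 40.6, 50.5, 50.6 and 50.8 CPM in knockouts and at 106, 68.6, 39.4 and 42.8 CPM in wild-type embryos. The wild-type group held both the highest and the lowest of these 8 values. The log2 fold change of -0.41 ± 0.28 SE became -0.06 without wild-type 1, and -0.06 with limma voom and sample weights. Without wild-type 3 it was -0.58 (edgeR, unadjusted p = 0.0486). The catalytic subunit Atp6v1a was the opposite case, at 103, 108, 120 and 112 CPM in knockouts against 110, 101, 116 and 110 CPM in wild-type embryos, with a log2 fold change of 0.02 ± 0.19 SE (95% interval -0.40 to 0.44). Its embryos of both genotypes lay within the same narrow band. Of the accessory proteins, Atp6ap2, the prorenin receptor, had 46.5 ± 6.47 CPM in knockouts against 41.9 ± 1.66 CPM (SD, n = 4), and Atp6ap1, which helps assemble V0, had 76.8 ± 6.44 against 79.3 ± 2.45 CPM. Neither difference exceeded the spread between embryos.

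**Figure D3:**
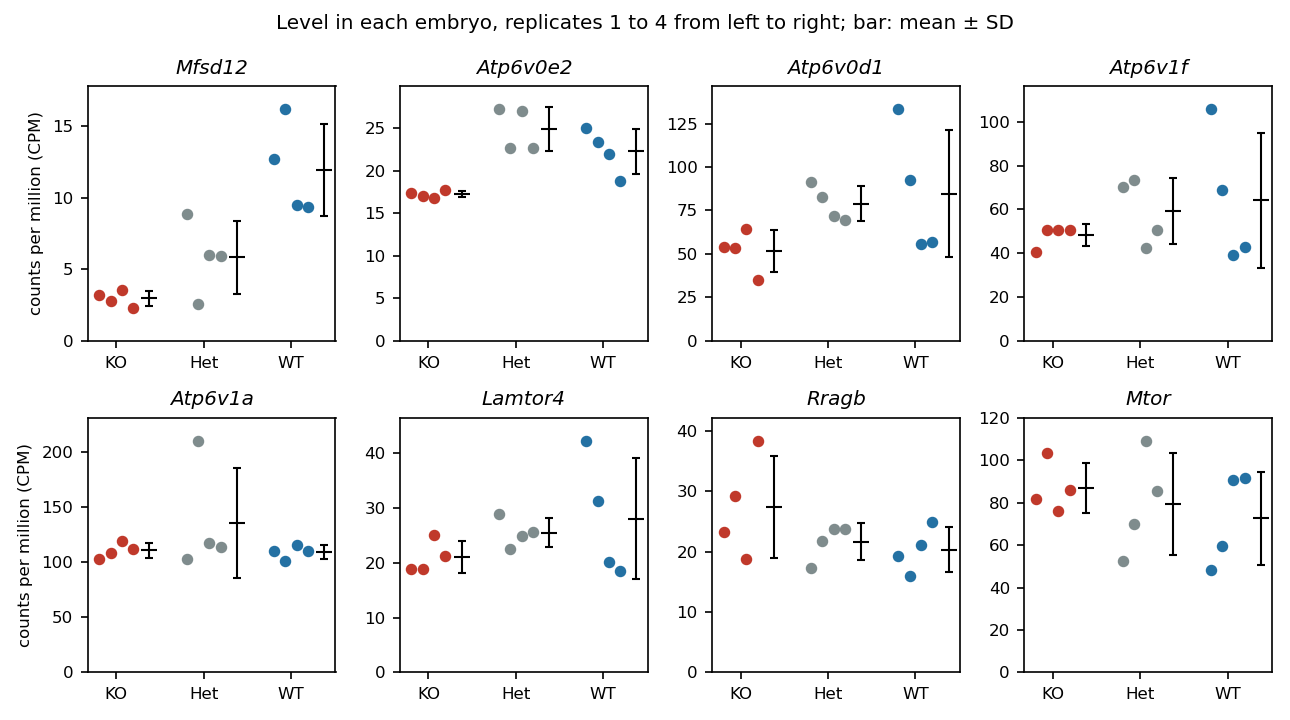
CPM in each embryo (points, replicates 1 to 4 from left to right) with mean ± SD (bar) for Mfsd12 and 7 members in knockout (KO), heterozygous (Het) and wild-type (WT) embryos. Knockouts lie below every other embryo for Atp6v0e2, wild-type 1 is the highest for Atp6v0d1, Atp6v1f and Lamtor4, and the high point of Atp6v1a at 210 CPM is the library labelled heterozygous 2.

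Ragulator leaned the same way as the pump, with 4 of 5 genes lower in knockouts and none at an unadjusted p under 0.05. Lamtor4, a small scaffold subunit, had the smallest p (0.0976, edgeR, unadjusted). It was at 18.8, 18.9, 25.1 and 21.1 CPM in knockouts and at 42.2, 31.2, 20.2 and 18.5 CPM in wild-type embryos. Wild-type 1 and 2 were above all knockouts, and wild-type 3 and 4 were among them. The log2 fold change of -0.42 ± 0.23 SE became -0.15 without wild-type 1 and -0.04 once the stage index was modelled.

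The Rag GTPases split. Rags act as pairs of RagA or RagB with RagC or RagD. Rragb, the X-linked form of RagA, was at 23.2, 29.2, 18.7 and 38.3 CPM in knockouts and at 19.2, 15.98, 21.1 and 24.9 CPM in wild-type embryos, and the groups overlapped. Its log2 fold change of 0.43 ± 0.22 SE was the highest of the 36 (edgeR, unadjusted p = 0.0701, adjusted p = 0.619). Once the stage index was modelled it was -0.01. Rragc, one of the partners of RagA and RagB, was at 56.5, 49.7, 60.3 and 39.3 CPM in knockouts against 74.7, 70.0, 56.5 and 52.2 CPM in wild-type embryos, a difference of -0.30 ± 0.16 SE that also became -0.01 with that covariate. Knockout 4, the embryo with the lowest stage index, held both the highest Rragb and the lowest Rragc of all 12 embryos.

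The sensors and the kinase complex had mostly higher estimates with wide intervals. Slc38a9 was at 10.7, 9.88, 13.2 and 14.97 CPM in knockouts and 7.90, 8.16, 14.04 and 12.6 CPM in wild-type embryos. These overlapped throughout, at a log2 fold change of 0.19 ± 0.23 SE. All 3 genes of the folliculin complex were on the higher side. Fnip2 led them with 37.2, 31.4, 36.2 and 41.1 CPM in knockouts against 16.5, 25.9, 39.5 and 35.2 CPM, for a log2 fold change of 0.32 ± 0.23 SE (edgeR, unadjusted p = 0.191). The difference came down to 0.12 without wild-type 1, whose Fnip2 was the lowest of the series. Flcn itself differed by 0.06 ± 0.14 SE. In mTORC1, Mlst8, a subunit that stabilizes the kinase domain, had the smallest p (0.3004, edgeR, unadjusted), at 41.6, 50.01, 42.0 and 33.9 CPM in knockouts and 49.97, 50.04, 45.2 and 46.4 CPM in wild-type embryos. Of its exonic length 24.7% overlaps Bricd5 on the other strand. Mtor, the kinase, was at 81.9, 103, 76.3 and 86.0 CPM in knockouts and 48.3, 59.8, 90.7 and 91.6 CPM in wild-type embryos. Wild-type 1 and 2 lay below every knockout and wild-type 3 and 4 among them, and the difference was 0.26 ± 0.24 SE. The scaffold Rptor differed by 0.07 ± 0.19 SE and the activating GTPase Rheb by 0.04 ± 0.15 SE.

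Several subunits exist in alternative forms, and their balance was compared in CPM per kb. Among the a subunits, which steer the pump to different membranes, Atp6v0a2 supplied 45.1 ± 8.97% of the sum on average, Atp6v0a1 40.2 ± 5.77% and Tcirg1, the osteoclast and lysosomal form, 14.8 ± 3.79% (SD, n = 12). Atp6v0e carried 81.5 ± 3.51% of the e pair. Atp6v0e2 made up 17.2, 15.3, 12.3 and 16.03% in knockouts and 16.2, 17.8, 23.2 and 19.6% in wild-type embryos, and these overlapped, with wild-type 1 below knockout 1. The neuronal form Atp6v1g2 was 1.98 ± 0.378% of the G pair in these embryos, and 14.8% of its length is shared with Nfkbil1 on the other strand. Rraga made up 91.7 ± 2.36% of its pair with Rragb. Rragc was 62.4 ± 7.90% of its pair with Rragd. The ratio of Rragd to Rragc was 0.501 to 1.02 in knockouts and 0.308 to 0.736 in wild-type embryos, and these overlapped. Fnip1 exceeded Fnip2 in every embryo (72.8 ± 4.70% of the pair). The ratio of Atp6v0a1 to Atp6v0a2 was 0.626 to 0.964 in 11 embryos and 3.06 in the library labelled heterozygous 2.

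**Figure D4:**
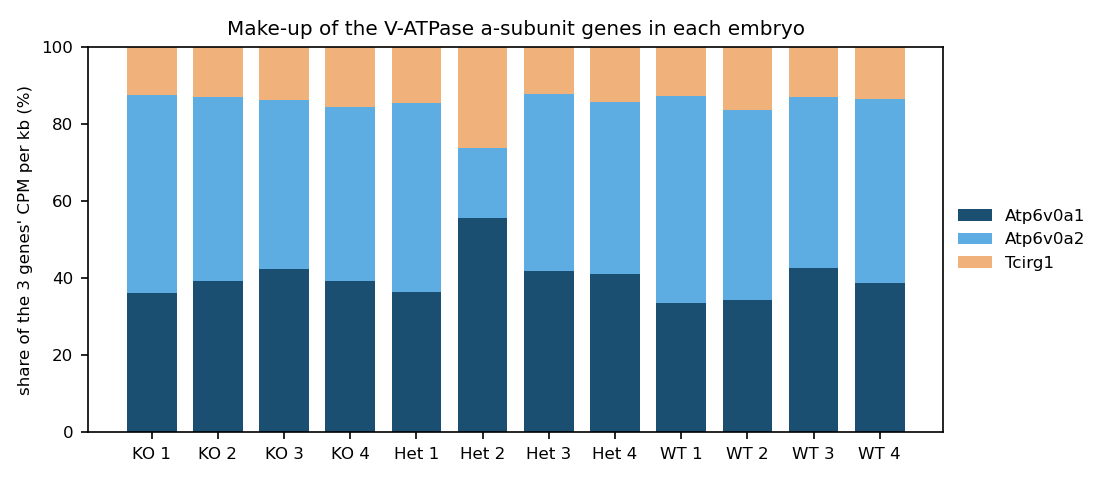
Share of each a-subunit gene in the summed CPM per kb of the 3 genes, as a stacked bar for each embryo (KO knockout, Het heterozygous, WT wild-type). The Atp6v0a2 share is 43.9 to 53.7% in 11 embryos and 18.2% in the library labelled heterozygous 2.

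Against heterozygous embryos the knockouts showed the same 2 V0 genes at the low end. The 2 comparisons share the knockout embryos, so they are not independent. No member passed the adjusted threshold in edgeR (0% of all genes). Atp6v0e2 and Atp6v0d1 had an unadjusted p under 0.05, 5.56% of the list against 7.4% of all genes (3.79% in the lower direction). Groups did not overlap for 3 members, Atp6v0e2, Atp6v0d1 and the Ragulator scaffold Lamtor2, all lower in knockouts, or 8.33% against 3.44% of all genes (1.93% in the lower direction). Estimates were lower for 24 genes and higher for 12, with a median of -0.08 against 0.00 over all genes, and 50.1% of all genes had a lower estimate. The median was -0.03 without the library labelled heterozygous 2.

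Atp6v0e2 differed from heterozygous embryos by -0.53 ± 0.14 SE on the log2 scale (edgeR, unadjusted p = 0.00197, adjusted p = 0.601). DESeq2, the alternative count model, put it past the threshold at a log2 fold change of -0.53 (adjusted p = 0.0386), the only call of a member in the alternatives run. The estimate stayed between -0.58 and -0.45 in all 25 alternatives. All 12 neuronal markers had an unadjusted edgeR p under 0.05 in this comparison, each with a lower estimate in knockouts, and that part was not tested. Atp6v0d1 was at 91.5, 82.7, 71.9 and 69.8 CPM in heterozygous embryos, each above the highest knockout at 64.2 CPM. Its log2 fold change was -0.61 ± 0.27 SE (edgeR, unadjusted p = 0.038, adjusted p = 0.659) and -0.25 once the stage index was modelled. Without the library labelled heterozygous 2 it was -0.59 (edgeR, unadjusted p = 0.0675). Lamtor2 was at 39.1, 35.3, 38.03 and 32.8 CPM in knockouts and 44.8, 63.8, 41.9 and 39.8 CPM in heterozygous embryos, a difference of -0.39 ± 0.20 SE. Without the library labelled heterozygous 2 it was -0.22 (edgeR, unadjusted p = 0.244). The gap between the groups was under 1 CPM, and the wild-type embryos, at 33.2 to 58.3 CPM, covered both.

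Between heterozygous and wild-type embryos the members lay close together. No member had an unadjusted p under 0.05 in edgeR, against 1.01% of all genes, and none passed the adjusted threshold (0% of all genes). Estimates were higher for 20 genes and lower for 16, with a median of 0.01, where 48.4% of all genes had a higher estimate. On library totals alone the split was 16 to 20 with a median of -0.03, and without wild-type 1 they were higher for 30 and lower for 6, with a median of 0.12. Atp6ap2 alone did not overlap, 2.78% of the list against 0.876% of all genes (0.433% in the higher direction). It was at 46.2, 70.8, 44.6 and 48.0 CPM in heterozygous and 40.2, 41.5, 41.9 and 44.1 CPM in wild-type embryos, and the gap between the groups was under 1 CPM. The log2 fold change was 0.32 ± 0.16 SE (edgeR, unadjusted p = 0.0708) and 0.14 without the library labelled heterozygous 2. Its gene is on the X chromosome and all 4 heterozygous embryos expressed Xist against 1 of the wild-type embryos, so sex was unevenly spread over these genotypes. With Xist as a covariate the log2 difference was 0.18 (edgeR, unadjusted p = 0.455).

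The library labelled heterozygous 2 lay apart for several members. It held the highest value of all 12 embryos for 9 members, among them Atp6v1a at 210 CPM against 101 to 120 CPM elsewhere, Atp6ap1 at 128 CPM against 70.4 to 86.7 CPM, and Rheb at 96.0 CPM against 58.5 to 77.0 CPM. It held the lowest value for 5, of which 1 is a pump gene: Atp6v0a2 at 16.9 CPM against 43.1 to 59.6 CPM. The others were Lamtor1, Rraga, Rptor and Mlst8, the last at 28.2 CPM against 33.9 to 51.5 CPM. The V1 sector summed to 886 CPM in it and 883 CPM in wild-type 1, above 568 to 695 CPM in the other 10 embryos. Over all genes tested it held the highest value for 17.9% and the lowest for 18.5%, so 9 of 36 (25%) was above the first share and 5 of 36 below the second. Its glycolysis and hypoxia-response sum of 13909 CPM and its ATF4 target sum of 4392 CPM were the highest of the series, and their part in the pump values was not tested. Without this library the log2 difference of Atp6v1a between heterozygous and wild-type embryos went from 0.31 to 0.02.

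Member levels followed transcript length in several embryos. In wild-type 1 the short genes stood high and the long ones low, with a Pearson r of -0.84 between centred log2 CPM and log2 length over the 36 genes, and in wild-type 4 the order was turned round, with r of 0.84. It was -0.70 in heterozygous 1, -0.62 in wild-type 2, 0.61 in heterozygous 3, 0.78 in wild-type 3 and 0.32 to 0.40 in the knockouts. These r values run across genes of 1 library, which are not independent replicates, and are given as a description. The 9 members of up to 1500 bases, which are the 5 Ragulator genes with Atp6v0e, Atp6v1e1, Atp6v1f and Atp6v1g1, lay above the 10 members of 5000 bases or more by 0.95 on the log2 scale in wild-type 1 and below them by 0.44 in wild-type 4. Over all genes tested this difference ran from 0.50 in wild-type 1 to -0.28 in wild-type 3, and r ran from -0.30 to 0.31. Its sign matched that of the members in every heterozygous and wild-type embryo. In knockout 2 and 4 it was 0.02 and 0.01 over all genes but -0.24 and -0.19 over the members. Wild-type 1 was the highest of 12 for 17 of the 36 members, 11 of them in the pump, against 19.5% of all genes. With the tilt over all genes as a covariate, the 36 members split 18 to 18 between knockout and wild-type, and Atp6v0e2 and Atp6v0d1 stood at log2 fold changes of -0.35 and -0.51. That covariate does not carry the members' own tilt in knockout 2 and 4.

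**Figure D5:**
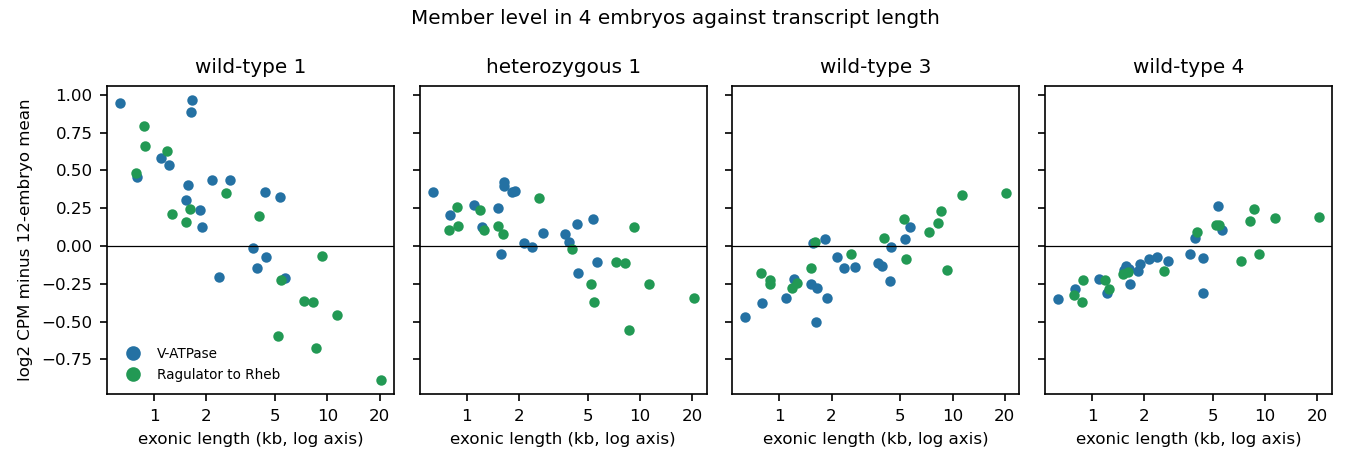
Log2 CPM of the 36 genes minus their 12-embryo mean against exonic length in kb (log axis) in 4 embryos, with the 19 V-ATPase genes and the 17 genes from Ragulator to Rheb in different colours. The points fall with length in wild-type 1 and heterozygous 1 and climb with it in wild-type 3 and 4, where r is 0.78 and 0.84.

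The tilt differed between title numbers in wild-type embryos, where both of number 18 had a negative r and both of number 4 a positive one. Heterozygous embryos went the same way, with r of -0.70 in heterozygous 1 (number 18) and 0.19 in heterozygous 4 (number 4). Knockouts did not, with r of 0.32 in knockout 3 (number 18) and 0.38 in knockout 2 (number 4), at 1 embryo for each number. Embryos numbered 18 (knockout 3, heterozygous 1, wild-type 1 and 2) and 4 (knockout 2, heterozygous 4, wild-type 3 and 4) hold the same genotypes. Between them 8 members did not overlap, 22.2% against 20.2% of all genes. Higher in number 18 were Atp6v0b, Atp6v0e, Atp6v1e1, Atp6v1g1 and Atp6v1h, and lower were Rragb, Rragd and Mtor. Mtor, for example, was at 48.3 to 76.3 CPM in number 18 and 85.5 to 103 CPM in number 4. Within number 18 the median log2 difference of the knockout from the 2 wild-type embryos was -0.12 over the members, and within number 4 it was 0.07. The knockout lay below both wild-type embryos for 11 members in number 4 and 16 in number 18, and above both for 18 and 11. It lay below both in both numbers for 3 members, Atp6v0d1, Atp6v0e2 and Rragc, and above both for 4, Rragd, Flcn, Mtor and Rptor. The share over all genes was not counted. A rule of 1 knockout against 2 wild-type embryos is easily met, so no conclusion is drawn from these names. Numbers 14, 15 and 4.1b held no wild-type embryo, so no such value exists for them.

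Outside the 36 genes, the listed regulators and substrates of the platform were read in the same fits of knockout against wild-type, and none passed the adjusted threshold. In the list of sestrins and Castor proteins, which carry leucine and arginine signals to GATOR2, 3 of 5 genes had an unadjusted edgeR p under 0.05, where 8.33% of all genes did. Sesn2 was higher in all 4 knockouts than in any wild-type embryo. It is a target of ATF4, and of 18 ATF4 targets tested 17 had higher estimates in knockouts, 14 of them at an unadjusted edgeR p under 0.05. The list of ATF4 targets shares a gene with that of sestrins and Castor proteins, so their counts are not independent. The part of ATF4 in the Sesn2 difference was not tested. Sesn1 and Sesn3 had lower estimates, at -0.60 ± 0.19 SE and -0.55 ± 0.18 SE on the log2 scale, and of these 2 Sesn3 had groups that did not overlap. Among 7 mTORC1 substrates, Eif4ebp1, a translation repressor, stood at 94.7, 69.7, 25.4 and 54.3 CPM in knockouts and at 30.6, 22.6, 16.98 and 22.5 CPM in wild-type embryos. The groups overlapped through knockout 3 (edgeR log2 fold change 1.40 ± 0.49 SE, unadjusted p = 0.0135), and the library labelled heterozygous 2 was as high, at 94.1 CPM. The S6 kinase gene Rps6kb2 differed by -0.36 ± 0.16 SE. In the other lists at most 1 gene had an unadjusted p under 0.05: the pump-associated Rnasek (-0.63 ± 0.27 SE) among 8 assembly factors tested and Kptn (-0.57 ± 0.26 SE) among 5 of KICSTOR and SAMTOR, and none among GATOR1, GATOR2, the TSC complex, the mTORC1 inhibitors and the mTORC2 subunits. Tissue-restricted pump subunits were low, with all 6 together at 1.39 to 6.64 CPM per embryo.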

How the data were processed

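Poly(A) RNA of 12 whole embryos had been sequenced as stranded paired-end libraries from 325 ng of RNA each, with ERCC spike-ins, per the labels' protocols; 0 spike-in entries are in the table. The deposited values are estimated counts per gene. The authors made them with featureCounts 2.0.6 on RefSeq genes of GRCm39, with multi-mapping and overlapping reads split into fractions and strand not used, per the file headers. The submitters' processing notes also name DRAGEN and Subread without a role, and the aligner is not given in the sources used here. The other deposited column, the exonic length in bases per the file headers, gave the CPM per kb.

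Counts were rounded to whole numbers, filtered with filterByExpr and scaled by TMM. The edgeR 4.0.16 quasi-likelihood test (robust, 1 mean per genotype, all 12 embryos) gave log2 fold changes, and p-values were adjusted by Benjamini-Hochberg over all 20771 genes tested. DESeq2 1.42.0, limma 3.58.1 (R 4.3.3) and other scalings, filters, covariates and left-out embryos were alternatives. The fitting was tested on simulated counts. The counted reads per library bound the precision of low genes only, since the spread between embryos is larger. Whether embryos with the same title number share a litter is not stated, so p-values measure only the spread between these embryos.

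The members and lists were chosen with earlier results of these data known. Genes are named with all values if they were the Mfsd12 gene, passed the adjusted threshold, did not overlap between knockout and wild-type, or had the smallest p of their sub-complex; isoform pairs are named with their ratio, and up to 2 genes per other list. Other members given with values, such as Atp6v0d1, Atp6v1a, Lamtor2, Rragc and Mtor, were chosen after their values were seen. The exons of 6 members overlap another gene (Atp6v0b, Atp6v1c1, Atp6v1g2, Flcn, Rptor and Mlst8). RefSeq promoters, 30 of 36 members matched by symbol, are from GRCm38.p6 and gave no coordinates for GRCm39.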

Additional observations from a re-analysis of the deposited data

Results flagged for a closer look

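In groups of 4 embryos, 8 of the 108 combinations of member and genotype held an embryo whose gap to the nearest other one exceeded Dixon's 95% critical value, where chance gives about 1 in 20. The library labelled heterozygous 2 was the high value in 3 of them, with Atp6v1a at 210 CPM, Atp6ap2 at 70.8 CPM and Fnip1 at 47.7 CPM. Wild-type 1 was the high value for Atp6v1b2 (171 CPM) and for Atp6v1c1 (53.9 CPM). Knockout 1 was the low value for Atp6v1f (40.6 CPM) and Lamtor5 (39.7 CPM), and heterozygous 3 was the low value for Atp6v1c1 (34.0 CPM).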

How the results depend on the processing

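Of 2700 member values under 25 alternatives for each of the 3 comparisons, 2686 stayed within 1 SD between embryos of the value reported, 13 moved further and 1 was called. Genes called went from 0 to 122, 74 and 4 with DESeq2 in knockout against wild-type, knockout against heterozygous and heterozygous against wild-type, and members called in the second from 0 to 1, which is Atp6v0e2. Leaving out 1 embryo gave 0 to 1 genes in each of the first 2 comparisons, the 1 appearing without knockout 1 or knockout 3 in the first and without knockout 3 in the second. Without the library labelled heterozygous 2 and knockout 3, a choice made after seeing the data, 19 and 33 genes were called, and no member. The members' median between heterozygous and wild-type embryos ran from -0.0188 (without wild-type 3) to 0.118 (without wild-type 1) with 1 embryo left out. Titles give a number that genotypes share in part (18 and 4), and its meaning is not stated. With this title number as a block, 2 genes and no member were called in knockout against wild-type, and 0 genes in both other comparisons. The covariate for short against long genes was also added after seeing the data. Mfsd12 kept its direction in all 25 alternatives (log2 fold change -2.11 to -1.55) with an unadjusted p under 0.05. Its adjusted p went from 0.385 to 1.14e-05 with DESeq2 and to 0.0235 without the library labelled heterozygous 2 and knockout 3, and stayed above 0.05 in the others. Other scalings left 13 to 14 members higher in knockout against wild-type and shifted the median of all genes by less than 0.1. On library totals alone, 62.3% of the genes with an unadjusted edgeR p under 0.05 between heterozygous and wild-type embryos were higher, against 72.7% with TMM. With 4 embryos a group, the median 95% interval of a member reached 0.42 to either side on the log2 scale in knockout against wild-type.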
